A study of Mus musculus with 2 samples.

Results

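The Fc receptors described here are the products of 5 mouse genes, Fcgr1, Fcgr3, Fcgr4, Fcgr2b and Fcer1g, chosen by symbol among the 31053 genes counted. They were read in 2 single-cell libraries of sorted cortical myeloid cells from male 5xFAD hemizygous mice on the C57BL/6J strain, a transgenic model that deposits amyloid in the brain. In the photoconversion group, mice received 5 uL of the photosensitizer Visudyne into the cisterna magna at 4 months of age, followed by 5 steps of 689-nm light through the skull to ablate meningeal lymphatic vessels. In the control group, mice received 5 uL of Visudyne alone, so both groups carried the transgenes and the photosensitizer. Injections were repeated after 3 weeks, and tissue was taken after another 3 weeks at 5.5 months. SYTOX- Ly6G- CD45+ CD11b+ singlets from the cortices of 3 mice were pooled into each library, and the labels of these libraries name no antibody treatment.

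Fc gamma receptors bind the constant part of IgG and are the means by which microglia and macrophages recognise antibody-coated material, including amyloid bound by an anti-amyloid antibody. Fcgr1 (high affinity), Fcgr3 and Fcgr4 encode activating receptors, which signal through the immunoreceptor tyrosine-based activation motif (ITAM) of the common gamma chain encoded by Fcer1g. Fcgr2b encodes the inhibitory receptor, whose tail carries an immunoreceptor tyrosine-based inhibition motif (ITIM) that recruits the phosphatase SHIP1, encoded by Inpp5d. The ratio of activating to inhibitory receptors on a cell is a textbook determinant of the threshold for responding to immune complexes.

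The sequences that make a receptor complex activating or inhibitory are the ITAM and ITIM stretches, so the coding sequence of both is given, with the tyrosine codons in capitals. The Fcer1g ITAM codons lie within chr1:171229889-171230072 (mm10, minus strand, split by an intron), and the Fcgr2b ITIM codons lie at chr1:170961071-170961088 (mm10, minus strand). Both are read 5′ to 3′ from the GENCODE transcripts Fcer1g-201 and Fcgr2b-201.
Fcer1g ITAM: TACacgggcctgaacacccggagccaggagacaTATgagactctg
Fcgr2b ITIM: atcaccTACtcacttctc
The ITAM stretch of 45 bases holds 2 tyrosine codons and the ITIM stretch of 18 bases holds 1.

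Of the 5 genes, 4 lie together on chromosome 1 and Fcgr1 lies on chromosome 3 (mm10). Fcgr2b spans chr1:170958617-170976547, Fcgr4 chr1:171018920-171029761, Fcgr3 chr1:171051174-171064935 and Fcer1g chr1:171229572-171234365, and Fcgr1 spans chr3:96282909-96293969. All are protein-coding and read from the minus strand except Fcgr4. The 250 bases before the RefSeq start (GRCm38.p6) are shown for Fcgr1, Fcgr3 and Fcgr2b. Fcgr1 and Fcgr3 are the activating receptors with at least 100 UMIs between the classes, both lower in Cst7-dominant cells of each library. Over all kept cells the Fcgr2b ratio lay nearer to 1 in each library. With photoconversion this order turned in cells thinned to equal depth, as given below, so the choice of windows rests on the pooled values. Capitals mark the PU.1 core GAGGAA and the interferon-response (GAS) letters TTCNNNGAA, searched on both strands, so that GAGGAA may appear as its complement TTCCTC.
Fcgr1, chr3:96293970-96294219: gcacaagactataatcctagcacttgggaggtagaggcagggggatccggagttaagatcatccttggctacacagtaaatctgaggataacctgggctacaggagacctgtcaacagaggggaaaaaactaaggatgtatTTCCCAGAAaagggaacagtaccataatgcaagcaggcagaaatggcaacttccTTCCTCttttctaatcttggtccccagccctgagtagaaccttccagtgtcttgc
Fcgr3, chr1:171059404-171059653: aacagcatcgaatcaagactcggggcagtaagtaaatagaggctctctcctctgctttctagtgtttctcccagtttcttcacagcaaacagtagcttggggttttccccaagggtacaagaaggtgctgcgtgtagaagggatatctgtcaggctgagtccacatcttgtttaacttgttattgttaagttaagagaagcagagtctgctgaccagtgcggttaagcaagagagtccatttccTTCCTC
Fcgr2b, chr1:170976072-170976321: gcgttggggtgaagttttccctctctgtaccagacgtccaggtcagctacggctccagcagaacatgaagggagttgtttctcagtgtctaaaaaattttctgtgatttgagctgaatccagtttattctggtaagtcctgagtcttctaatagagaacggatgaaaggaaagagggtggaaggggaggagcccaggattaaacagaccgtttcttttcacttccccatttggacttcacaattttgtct
The PU.1 core occurred 1 time each in the Fcgr1, Fcgr3 and Fcgr4 windows and not in those of Fcgr2b and Fcer1g, and 23.3% of 32851 RefSeq windows of this length held it. In Fcgr3 it ended at the first of the gene's RefSeq starts, and in Fcgr1 49 bases before the start. The GAS letters occurred in the Fcgr1 window alone of the 5, 100 bases before the start and clear of the PU.1 core, and in 7.02% of all windows. Matches describe letters in these windows and not binding.

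Cells were barcodes in which 200 or more genes were detected and no more than 10% of UMIs were mitochondrially encoded. These filters kept 317 of 2000 barcodes with photoconversion and 555 of 2000 in control. Kept cells held 1816177 and 2422711 UMIs, with medians per cell of 3410 with photoconversion and 2670 in control. All 9 microglia markers were detected in both libraries, and 311 and 545 kept cells had at least 3 of their UMIs. Border macrophage markers summed to 18 UMIs (3 of 7 genes detected) with photoconversion and 96 (6 of 7) in control, monocyte markers to 29 (3 of 5) and 184 (4 of 5), and neutrophil markers to 9 and 5 (2 of 7 each). B-cell markers summed to 523 UMIs (2 of 7 genes detected) with photoconversion and 701 (3 of 7) in control. Of these, Ighm had 499 UMIs with photoconversion and 654 in control, while Cd79a, Ms4a1 and Igkc were at 0 in both libraries. Mast and dendritic cell markers (4 genes) were at 0 in both. The libraries shared 27 of their 2000 barcodes and none among the kept cells. With 1 library per group there is no replicate check and no test between groups. Intervals are at 95%, cover counting error only, and treat UMIs as independent although cells vary more than that.

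Fcer1g and Fcgr3 were the abundant members, and their values in the photoconversion library lay within a few percent of control. Fcgr1, the high-affinity IgG receptor, had the lower value with photoconversion, and Fcgr2b, the inhibitory receptor, a slightly higher one. Fcgr4, another activating receptor, was the least abundant member. Fcer1g had 7093 UMIs (3905 CPM) with photoconversion and 9501 UMIs (3922 CPM) in control, where CPM scales a gene's UMIs to 1e+06 UMIs of the cells compared. Fcgr3 had 2652 UMIs (1460 CPM) with photoconversion and 3608 UMIs (1489 CPM) in control. The ratios, photoconversion over control, were 0.996 (0.966 to 1.03) for Fcer1g and 0.981 (0.932 to 1.03) for Fcgr3, so the intervals of both held 1.

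Fcgr1 had 528 UMIs (291 CPM) with photoconversion and 817 UMIs (337 CPM) in control, a ratio of 0.862 (0.771 to 0.963). Fcgr2b had 552 UMIs (304 CPM) with photoconversion and 697 UMIs (288 CPM) in control, a ratio of 1.06 (0.943 to 1.18). Fcgr4 had 64 UMIs (35.2 CPM) with photoconversion and 104 UMIs (42.9 CPM) in control, a ratio of 0.821 (0.592 to 1.13), and 16 of the control UMIs came from 1 cell. Without the 5 photoconversion and 14 control cells that held at least 3 UMIs of border macrophage, monocyte or neutrophil markers, the Fcgr4 ratio was 0.956 (0.672 to 1.35). Fcgr1 was thus the member whose counting interval lay below 1. Measured against the median ratio of all genes (log2 -0.06), its ratio was 0.900 (0.805 to 1.01). A ratio was called past the fold when its log2 value exceeded 0.32 in size. Of the 5 members, 0 were past the fold in either direction, where 23.7% of the 4009 genes with at least 100 UMIs were. With every cell thinned to 1000 UMIs the Fcgr1 ratio was 0.737 (0.562 to 0.959) and the Fcgr4 ratio 0.745 (0.342 to 1.53). At that depth 2 of 5 members, these, were past the fold lower, where 26.9% of the same 4009 genes were, and 0 higher, where 19.8% were.

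**Figure D1:**
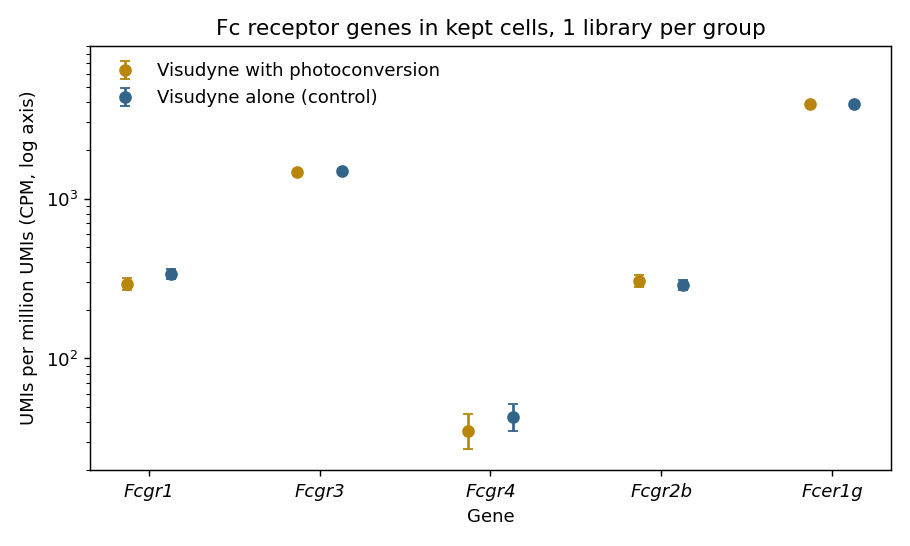
Level of each Fc receptor gene (CPM, log axis) in kept cells of the photoconversion library (left points) and the control library (right points), with exact Poisson intervals. The 5 genes span about the same range in both, with Fcer1g at 3905 and 3922 CPM and Fcgr4 at 35.2 and 42.9 CPM.

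Each UMI stands for a captured transcript end, so levels were not divided by transcript length, and capture may differ between genes. Reads that Fcgr2b and Fcgr3 could share were looked for: 0 of 922 stretches of 50 bases from the last 500 bases of Fcgr3 transcripts, and 33 of 1467 (2.25%) of those of Fcgr2b, also occurred in another member. The remaining genes shared none. Fcgr4 overlaps the predicted gene Gm26110 on its own strand, Fcgr3 contains Mir6546, and Fcgr2b overlaps Gm38204 on the other strand.

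Most kept cells held UMIs of Fcer1g and Fcgr3, and a smaller share held the other receptors. Fcer1g was detected in 93.7% of photoconversion cells and 91.5% of control cells, and Fcgr3 in 87.7% and 84.5%. Fcgr1 was detected in 59.9% and 55.7%, Fcgr2b in 57.7% and 50.5%, and Fcgr4 in 15.1% and 11.4%, photoconversion first. At 1000 UMIs per cell, which left out 45 shallower photoconversion cells and 116 control cells, Fcgr1 was detected in 22.8% of 272 photoconversion cells and 29.6% of 439 control cells. At that depth Fcgr2b was detected in 26.8% and 26.0%, Fcgr3 in 72.8% and 73.3%, and Fcer1g in 94.9% and 94.1%. The order of the libraries for Fcgr1 detection differed between full and equal depth, and the order at equal depth is that of its CPM.

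Free RNA can add UMIs to any droplet. In the 7 barcodes per library that astrocyte or vascular markers dominated, median 741 UMIs with photoconversion and 2307 in control, Fcer1g was present in 4 and 4 and Fcgr3 in 1 and 2. Fcgr1 and Fcgr4 had no UMI there, and Fcgr2b had 0 and 1. The level of Fcer1g in these barcodes was 356 CPM with photoconversion and 188 CPM in control. With so few barcodes, 0 of 7 allows a share of up to 41.0%. Barcodes with under 200 genes held more, with Fcer1g at 2160 CPM with photoconversion and 2568 CPM in control. Fcgr1 stood there at 234 and 272 CPM and Fcgr2b at 121 and 123 CPM. How much of this is free RNA, and how much free RNA adds to kept cells, was not tested.

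UMIs of the activating receptor genes outnumbered those of the inhibitory one by about the same factor in both libraries. These are counts of RNA, and receptor protein on the cells was not measured. Fcgr3 made up 69.9% of Fc gamma receptor UMIs with photoconversion and 69.0% in control, Fcgr1 13.9% and 15.6%, and Fcgr4 1.69% and 1.99%. Fcgr2b made up 14.5% (13.4 to 15.7) of 3796 UMIs with photoconversion and 13.3% (12.4 to 14.3) of 5226 in control. This is 5.88 activating UMIs per Fcgr2b UMI with photoconversion and 6.50 in control. The odds ratio of the inhibitory share was 1.11 (0.978 to 1.249), and its interval held 1. The common gamma chain stood at 2.19 Fcer1g UMIs per activating receptor UMI with photoconversion and 2.10 in control.

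Within single cells UMIs of the inhibitory receptor gene were rarely ahead. With pooled Fcgr2b shares of 14.5% and 13.3%, few cells would have it ahead even if all cells were alike. No expected number was computed, so the counts that follow describe cells and show no balance beyond the pooled share. Among cells with at least 5 Fc gamma receptor UMIs, activating UMIs outnumbered Fcgr2b UMIs in 212 of 216 photoconversion cells and 326 of 329 control cells. Counts were tied in 2 and 3 of these cells, and Fcgr2b led in 2 and 0. The median share of Fcgr2b per cell was 13% with photoconversion (quartiles 5.26 and 20.7%) and 11.1% in control (quartiles 0 and 19.4%). No Fcgr2b UMI was found in 49 and 84 of these cells, which at such counts does not show its absence.

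At 1000 UMIs per cell, 56.6% (50.5 to 62.6) of photoconversion cells and 59.0% (54.2 to 63.6) of control cells held UMIs of activating receptors only. Both kinds were found in 23.2% (18.3 to 28.6) and 21.6% (17.9 to 25.8), Fcgr2b only in 3.68% and 4.33%, and neither in 16.5% and 15.0%. All 4 pairs of intervals overlapped. Without thinning, both kinds were found in 57.1% and 49.2% of cells. Cells with both numbered 63 with photoconversion and 95 in control, where the product of the separate detection shares gives 58.2 and 91.9, so detection of one kind went with detection of the other little more than their shares alone give.

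Cst7 encodes cystatin F and marks plaque-associated, disease-associated microglia; P2ry12 encodes a purinergic receptor of homeostatic microglia. Cells with more Cst7 than P2ry12 UMIs (Cst7-dominant) numbered 157 with photoconversion and 207 in control, 49.5% and 37.3% of kept cells. P2ry12-dominant cells numbered 133 and 290, and 27 and 58 cells were tied, 21 and 45 of them with neither gene. The classes are ranges of counts and not types: Cst7 led by a single UMI in 20 and 21 cells and P2ry12 in 11 and 36. Cst7-dominant cells were deeper, with median UMIs of 5852 against 2739 in P2ry12-dominant cells with photoconversion, and 4655 against 2206.5 in control. The nuclear RNA Malat1 stood at 7561 CPM in Cst7-dominant and 24621 CPM in P2ry12-dominant cells with photoconversion, and at 6456 and 24796.5 CPM in control. The part of these differences in the results that follow was not tested, and values within depth ranges are given beside them.

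The 3 activating receptor genes had lower values in Cst7-dominant than in P2ry12-dominant cells of both libraries, while their common gamma chain did not. The gap was widest for Fcgr1 in control. Fcgr2b lay lower in Cst7-dominant cells by less than Fcgr1 in each library. With photoconversion, Fcgr1 had 253 CPM in Cst7-dominant and 406 CPM in P2ry12-dominant cells, a ratio of 0.622 (0.519 to 0.747). In control, Fcgr1 had 226 CPM in Cst7-dominant and 553 CPM in P2ry12-dominant cells, a ratio of 0.408 (0.353 to 0.470). Fcgr3 had 1321 and 1884 CPM with photoconversion, a ratio of 0.701 (0.646 to 0.761), and 1277 and 1967 CPM in control, a ratio of 0.649 (0.607 to 0.694), Cst7-dominant cells first.

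Fcgr4 had 41 UMIs in Cst7-dominant and 23 in P2ry12-dominant cells with photoconversion, a CPM ratio of 0.636 (0.373 to 1.11), and 47 and 49 UMIs in control, a ratio of 0.549 (0.360 to 0.837). Of the 49 in control, 16 came from the cell named above, and without cells of other myeloid markers the control ratio was 0.786 (0.491 to 1.27). Fcgr2b had 281 CPM in Cst7-dominant and 379 CPM in P2ry12-dominant cells with photoconversion, a ratio of 0.742 (0.619 to 0.893). In control Fcgr2b had 279 and 318 CPM, a ratio of 0.877 (0.750 to 1.03) whose interval held 1. With photoconversion the order of Fcgr1 and Fcgr2b turned at 1000 UMIs per cell, where the class ratios were 0.708 (0.447 to 1.11) for Fcgr1 and 0.497 (0.310 to 0.783) for Fcgr2b, and in control it did not, at 0.321 (0.216 to 0.466) and 0.693 (0.475 to 1.0). Fcer1g stood at 3994 CPM in Cst7-dominant and 3749 CPM in P2ry12-dominant cells with photoconversion, and at 4077 and 3798 CPM in control, ratios of 1.07 in each library. Cst7-dominant cells held 2.49 Fcer1g UMIs per activating receptor UMI with photoconversion, against 1.60 in P2ry12-dominant cells. In control these values were 2.66 in Cst7-dominant and 1.47 in P2ry12-dominant cells.

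**Figure D2:**
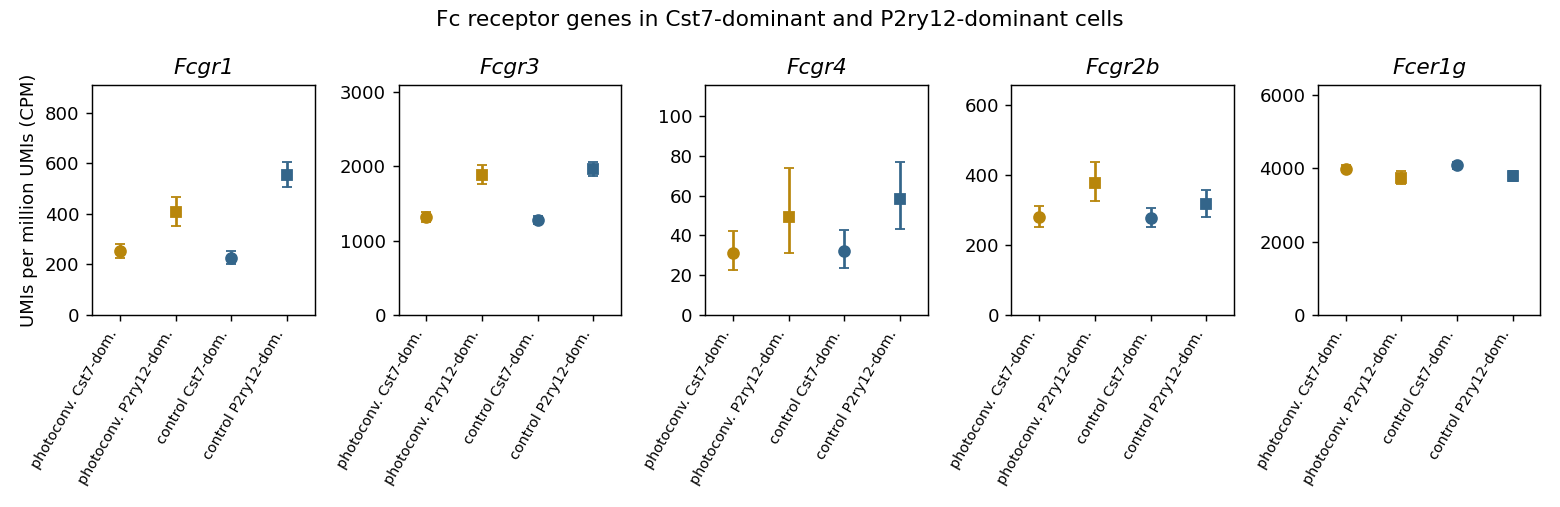
Level of each Fc receptor gene (CPM, axes from 0) in Cst7-dominant cells (circles) and P2ry12-dominant cells (squares) of the photoconversion library (left pair) and the control library (right pair), with exact Poisson intervals. Fcgr1 and Fcgr3 are lower in the circles of both pairs, and Fcer1g is near 4000 CPM in all 4.

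Differences of this size between the classes were common among all genes. Of the members with at least 100 UMIs, Fcgr1 and Fcgr3 were past the fold lower in both libraries, 2 of 4, where 28.5% of 1864 genes were, and 0 of 4 were past it higher in both, where 21.7% were. With photoconversion 3 of 4 members were past it lower (34.6% of 1871 genes) and 0 higher (29.4%), and 64% of all genes were past it in either direction. In control 2 of 4 were past it lower (42.2% of 2479 genes) and 0 higher (22.8%), and 65% of all genes in either direction. Relative to the median of those genes (log2 -0.05 with photoconversion and -0.19 in control), Fcgr1 stood at 0.644 with photoconversion and 0.466 in control, Fcgr3 at 0.725 and 0.741, Fcgr2b at 0.768 and 1.0, and Fcer1g at 1.10 and 1.23. TMM scaling of the summed cells placed every class ratio 0.35 (log2) higher with photoconversion and 0.36 higher in control. Under it Fcgr1 stayed below 1, at 0.791 with photoconversion and 0.525 in control, as did Fcgr3, at 0.892 and 0.835, both within the fold, while Fcgr2b crossed to 1.13 in control and Fcer1g stood at 1.36 and 1.38. A scaling multiplies all members by the same factor, so their order was the same under each.

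Within cells of 2000 to under 6000 UMIs, a range chosen after seeing the data, Fcgr1 was at 257 CPM in 52 Cst7-dominant and 413 CPM in 76 P2ry12-dominant cells with photoconversion, a ratio of 0.622 (0.434 to 0.879). In control it was at 241 CPM in 63 Cst7-dominant and 528 CPM in 128 P2ry12-dominant cells, a ratio of 0.456 (0.333 to 0.615). The Fcgr3 ratios in this range were 0.593 (0.507 to 0.693) with photoconversion and 0.642 (0.558 to 0.737) in control. At 6000 UMIs and above, Fcgr1 ratios were 0.816 (0.600 to 1.13) with photoconversion, from 78 Cst7-dominant and 18 P2ry12-dominant cells, and 0.590 (0.462 to 0.760) in control, from 94 and 31. In P2ry12-dominant cells the Fcgr1 level was lower in deeper cells, at 308 CPM with photoconversion and 385 CPM in control at 6000 UMIs and above, whereas in Cst7-dominant cells it was 251 and 227 CPM there. At 1000 UMIs per cell Fcgr1 was detected in 22.5% (15.9 to 30.3) of Cst7-dominant and 24.4% (17.0 to 33.1) of P2ry12-dominant cells with photoconversion. In control it was detected in 16.9% (11.8 to 23.2) of Cst7-dominant and 40.1% (33.7 to 46.7) of P2ry12-dominant cells. The Fcer1g ratio, 1.07 over all kept cells, was 0.992 (0.901 to 1.09) with photoconversion and 0.983 (0.906 to 1.07) in control in the middle range, so no direction is read for it.

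The inhibitory share separated the classes in control and by little with photoconversion. In control, Fcgr2b made up 15.4% (14.0 to 16.8) of Fc gamma receptor UMIs in Cst7-dominant and 11.0% (9.76 to 12.3) in P2ry12-dominant cells, an odds ratio of 1.47 (1.246 to 1.75). That is 5.50 activating UMIs per Fcgr2b UMI in Cst7-dominant and 8.12 in P2ry12-dominant cells. With photoconversion the shares were 14.9% (13.5 to 16.4) in Cst7-dominant and 13.9% (12.1 to 16.0) in P2ry12-dominant cells, an odds ratio of 1.08 (0.888 to 1.32). The control odds ratio was 1.42 (1.0 to 1.99) at 2000 to under 6000 UMIs and 1.45 (1.10 to 1.95) at 6000 and above. At 1000 UMIs per cell it was 1.26 (0.838 to 1.87) in control and 0.804 (0.485 to 1.32) with photoconversion, with 47 and 86 Fcgr2b UMIs in control and 32 and 54 with photoconversion, so the difference was not detectable at that depth.

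**Figure D3:**
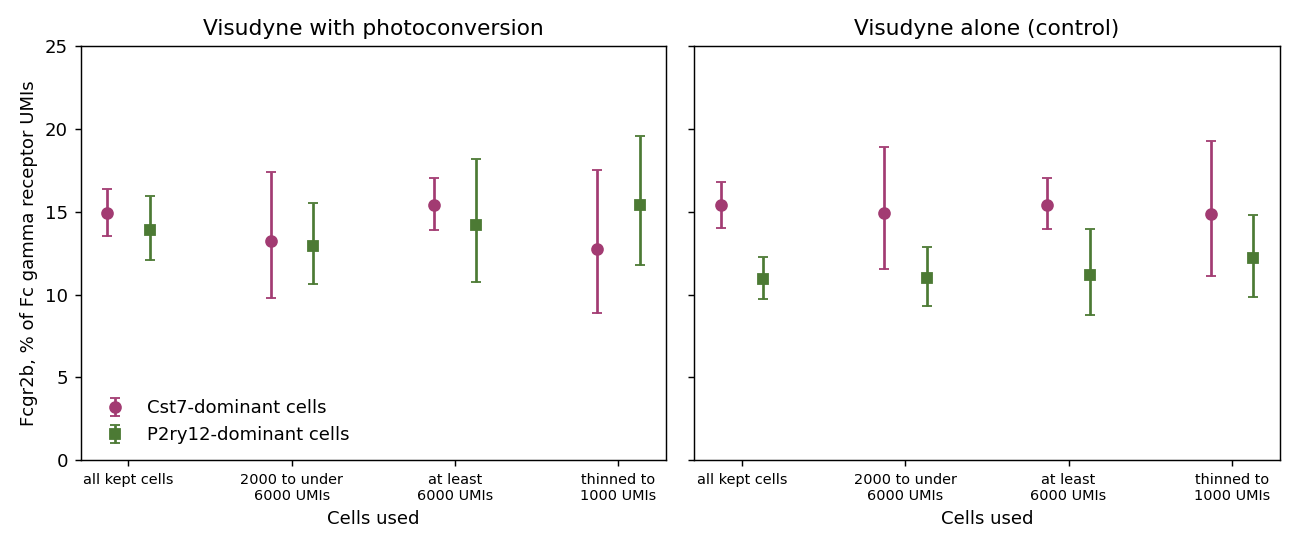
Fcgr2b as a percentage of Fc gamma receptor UMIs in Cst7-dominant cells (circles) and P2ry12-dominant cells (squares), with exact binomial intervals, for all kept cells, for 2 depth ranges and for cells thinned to 1000 UMIs. In control the circles lie above the squares, 15.4% and 11.0% over all kept cells, and with photoconversion they lie at 14.9% and 13.9%.

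Counted by cell at equal depth, the share of cells with both kinds of receptor was higher in P2ry12-dominant cells. The pooled Fcgr2b share at that depth was 12.7% in Cst7-dominant and 15.4% in P2ry12-dominant cells with photoconversion, the same order, and 14.9% and 12.2% in control, the opposite order. At 1000 UMIs per cell, both kinds were found in 17.6% (11.7 to 24.9) of 142 Cst7-dominant and 31.9% (23.7 to 41.1) of 119 P2ry12-dominant cells with photoconversion. In control the shares were 15.8% (10.9 to 22.0) of 183 Cst7-dominant and 26.7% (21.1 to 32.9) of 232 P2ry12-dominant cells. The intervals of the classes overlapped at their ends in both libraries. Such overlap does not measure the difference between the classes, which was not tested. Cells with both numbered 25 and 38 with photoconversion and 29 and 62 in control, Cst7-dominant first. The product of the separate detection shares gives 23.2 and 37.2, and 28.1 and 62.7. Fc gamma receptor UMIs together stood at 1886 and 2718 CPM with photoconversion and 1813 and 2897 CPM in control. The share of cells with both depends on these levels too, so it is not read as a balance. Neither kind was found in 19.0% of Cst7-dominant and 9.24% of P2ry12-dominant cells with photoconversion, and in 22.4% and 7.76% in control. Without thinning, both kinds were found in 63.1% and 59.4% of cells with photoconversion and in 58.5% and 49.7% in control, Cst7-dominant first. Among cells with at least 5 Fc gamma receptor UMIs, the median Fcgr2b share per cell was 14.3% in Cst7-dominant cells of either library, against 10.0% in P2ry12-dominant cells with photoconversion and 9.09% in control. These cells were not of equal depth, with median UMIs of 9935 against 3350 with photoconversion and 9557 against 3315 in control. No Fcgr2b UMI was found in 29 of the 99 P2ry12-dominant cells with photoconversion and 63 of the 193 in control. The part of depth in these medians was not tested. The 2 cells in which Fcgr2b led were both P2ry12-dominant cells of the photoconversion library.

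**Figure D4:**
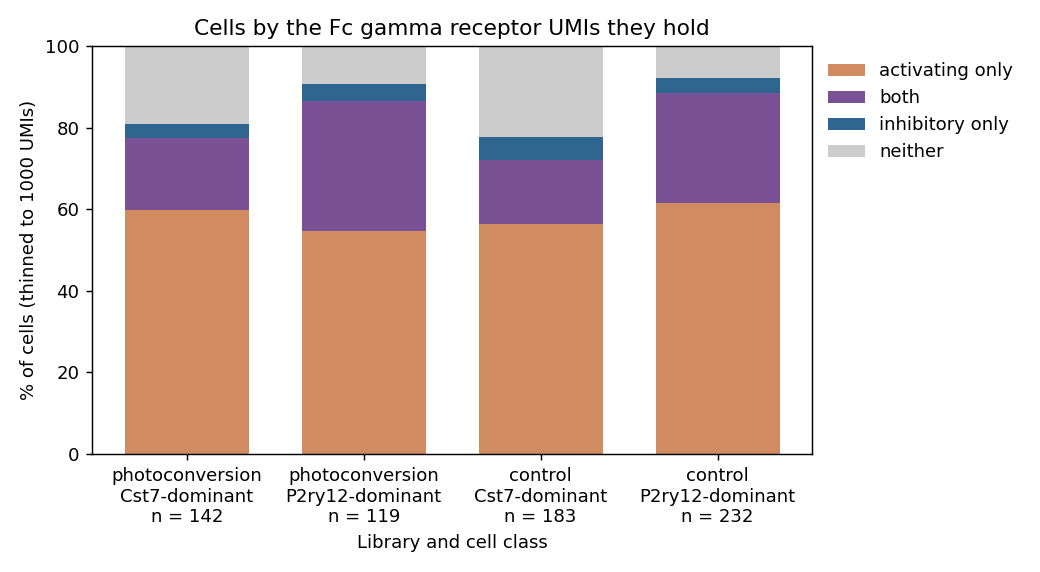
Percentage of cells, each thinned to 1000 UMIs, that held UMIs of activating receptors only, of both kinds, of Fcgr2b only or of neither, by library and class. The segment for both kinds is 17.6% and 15.8% in Cst7-dominant cells, photoconversion first, and 31.9% and 26.7% in P2ry12-dominant cells.

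Between libraries, the lower Fcgr1 value lay in P2ry12-dominant cells. There Fcgr1 had 190 UMIs (406 CPM) with photoconversion and 465 UMIs (553 CPM) in control, a ratio of 0.734 (0.617 to 0.871). In Cst7-dominant cells it had 331 UMIs in each library, 253 CPM with photoconversion and 226 CPM in control, a ratio of 1.12 (0.959 to 1.31). The libraries also differed in their share of Cst7-dominant cells, and its part in the Fcgr1 ratio over all kept cells was not tested. Fcgr1 was the 1 member of 4 with at least 100 UMIs past the fold in P2ry12-dominant cells, where 24.4% of 1646 genes were past it in either direction. It was 1 of 4 past it lower (16.5% of genes), and 0 of 4 were past it higher (7.9%). In Cst7-dominant cells 0 of 4 were past it in either direction (20.2% of 2615 genes, 8.22% higher and 11.9% lower). In P2ry12-dominant cells the Fcgr1 ratio was 0.783 (0.619 to 0.986) at 2000 to under 6000 UMIs, 0.800 (0.552 to 1.15) at 6000 and above, and 0.618 (0.432 to 0.869) at 1000 UMIs per cell.

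The other members differed by less within classes. In P2ry12-dominant cells the ratios, photoconversion over control, were 1.19 (0.980 to 1.45) for Fcgr2b, 0.958 (0.882 to 1.04) for Fcgr3, 0.844 (0.490 to 1.41) for Fcgr4 and 0.987 (0.931 to 1.05) for Fcer1g. In Cst7-dominant cells they were 1.01 (0.873 to 1.16) for Fcgr2b, 1.03 (0.968 to 1.10) for Fcgr3, 0.977 (0.627 to 1.52) for Fcgr4 and 0.980 (0.944 to 1.02) for Fcer1g. All 8 intervals held 1. Fcgr4 rested on 23 UMIs with photoconversion and 49 in control in P2ry12-dominant cells, where its ratio was 1.24 (0.689 to 2.19) without cells of other myeloid markers. The inhibitory share in P2ry12-dominant cells was 13.9% with photoconversion and 11.0% in control, an odds ratio of 1.31 (1.06 to 1.62), and in Cst7-dominant cells 14.9% and 15.4%, an odds ratio of 0.964 (0.824 to 1.13). In P2ry12-dominant cells the odds ratio was 1.20 (0.903 to 1.60) at 2000 to under 6000 UMIs and 1.31 (0.873 to 1.97) at 6000 and above. It was 1.31 (0.889 to 1.92) at 1000 UMIs per cell, and these intervals held 1. At 1000 to under 2000 UMIs it was 1.99 (1.12 to 3.47). Leaving out barcodes with at least 3 UMIs of border macrophage, monocyte or neutrophil markers gave odds ratios of 1.28 (1.03 to 1.58) and 0.961 (0.821 to 1.12), and Fcgr1 ratios of 0.691 (0.577 to 0.825) and 1.16 (0.986 to 1.35), P2ry12-dominant cells first.

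Of 29 genes listed for the activating cascade below the receptors, 18 had at least 100 UMIs, of which 1 (Sh3bp2) was past the fold higher with photoconversion and 4 (Vav1, Btk and Prkcd among them) lower (7.36% and 16.3% of all 4009 genes), with a median log2 ratio of -0.08 against -0.06 for all genes. Thinned to 1000 UMIs per cell, 2 of the 18 were past it higher and 8 lower (19.8% and 26.9% of all genes). Cdc42 and Rac1, small GTPases that drive engulfment, had 467 and 387 CPM with photoconversion and 549 and 369 CPM in control, ratios of 0.851 (0.780 to 0.928) and 1.05 (0.949 to 1.16). The kinase gene Btk had the ratio farthest from 1 of the 18, at 0.579 (0.380 to 0.865). Of 9 genes of inhibitory signalling, 4 were measured and 0 were past the fold, and at 1000 UMIs per cell 1 was past it in each direction. Sh3bp2, Vav1 and Prkcd are named because they make up the count. The 4 inhibitory genes were Inpp5d at 0.836 (0.706 to 0.987), the phosphatase gene Ptpn6 at 0.925 (0.806 to 1.06), Cbl, a ubiquitin ligase, at 1.14 (0.824 to 1.56) and Dok1, the remaining one, at 0.993 (0.754 to 1.30).

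The receptor relatives were measured in 2 of 13 genes, both past the fold lower with photoconversion (16.3% of all genes). Relative to the median of all genes 1 of the 2 was past it, since Fcrls then stood at a log2 ratio of -0.27. Fcrls, a microglial Fc receptor-like gene, had 1658 CPM with photoconversion and 2083 CPM in control, a ratio of 0.796 (0.760 to 0.833), and Fcgrt, the neonatal Fc receptor chain, 66.1 CPM with photoconversion and 89.6 CPM in control, a ratio of 0.738 (0.585 to 0.926). Among the ITAM adaptors, Tyrobp (DAP12, the adaptor of several activating receptors) stood at 10683 CPM with photoconversion and 9640 CPM in control, a ratio of 1.11 (1.09 to 1.13), and Hcst, which encodes DAP10 and carries a PI3-kinase-binding motif in place of an ITAM, at 1.04 (0.892 to 1.20). None of the 3 measured was past the fold. Within Cst7-dominant cells Tyrobp stood at 12517 CPM with photoconversion and 12275 CPM in control. Within P2ry12-dominant cells it stood at 5805 and 5422 CPM. Cst7-dominant cells made up 49.5% and 37.3% of kept cells, and the part of this mix in the library ratios was not tested. Of 10 other lectin and receptor genes listed around Fcer1g, Clec4a2 alone was measured, and its pairing with Fcer1g is not claimed here. Its ratio was 0.738 (0.525 to 1.03), past the fold lower (16.3% of all genes), with 57 UMIs with photoconversion and 103 in control. Of 12 other genes listed as ITIM receptors 7 were measured, 1 (Siglecf) past the fold higher and 2 (Cd300a and Cd72) lower (7.36% and 16.3% of all genes). The motif was not looked for in the mouse sequences of these 12, Cd33 among them, so the name is that of the list. Of these 7, thinned to 1000 UMIs per cell, 2 were past it higher and 0 lower (19.8% and 26.9%). Sirpa, the receptor for CD47, was at 1.07 (0.989 to 1.16), Lair1, a collagen receptor, at 1.02 (0.924 to 1.12), Cd300a at 0.764 (0.627 to 0.929) and Cd72 at 0.780 (0.587 to 1.03).

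Between the classes, the adaptor genes Tyrobp and Hcst had higher values in Cst7-dominant cells of both libraries, while the cascade below the receptors had more genes past the fold lower than higher, 4 of 10 with photoconversion being near the share of all genes. Of the activating signalling genes, 4 of 10 measured were past the fold lower and 0 higher with photoconversion (34.6% and 29.4% of all genes), and 8 of 12 lower and 1 (Lat2) higher in control (42.2% and 22.8%). Lyn, Vav1 and Prkcd were among the 4 lower with photoconversion and among the 8 in control. Lyn, the Src-family kinase that phosphorylates ITAMs and ITIMs, named after its values were seen, had 143 CPM in Cst7-dominant and 402 CPM in P2ry12-dominant cells with photoconversion, a ratio of 0.355 (0.288 to 0.437), and 0.388 (0.328 to 0.460) in control. Inpp5d was at 0.617 (0.469 to 0.816) and 0.414 (0.333 to 0.513), photoconversion first. Of the inhibitory signalling genes, 1 of 2 measured (Inpp5d) was past the fold lower with photoconversion (34.6% of all genes). In control 2 of 3 (Inpp5d and Dok1) were (42.2%), and relative to the median of all genes 1 of 3 (Inpp5d) was. Dok1 was at 0.797 (0.549 to 1.17) in control, where the interval held 1. With photoconversion Dok1 had too few UMIs to be measured, 77 in Cst7-dominant and 19 in P2ry12-dominant cells, at 1.45 (0.867 to 2.53). Rac1 was at 1.01 (0.850 to 1.20) and 0.978 (0.850 to 1.13). Both measured relatives were past the fold lower in Cst7-dominant cells (34.6% of all genes with photoconversion and 42.2% in control). Relative to the median of all genes, 2 of 2 were past it with photoconversion and 1 of 2 (Fcgrt) in control. Fcrls was at 0.713 (0.661 to 0.770) and 0.764 (0.721 to 0.809), photoconversion first. Fcgrt was at 0.524 (0.357 to 0.776) and 0.618 (0.467 to 0.818).

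Tyrobp had 12517 CPM in Cst7-dominant and 5805 CPM in P2ry12-dominant cells with photoconversion, a ratio of 2.16 (2.07 to 2.25), and 12275 and 5422 CPM in control, a ratio of 2.26 (2.19 to 2.34). Per Fcer1g UMI, Tyrobp had 3.13 UMIs in Cst7-dominant and 1.55 in P2ry12-dominant cells with photoconversion, and 3.01 and 1.43 in control. Hcst was at 3.53 (2.41 to 5.37) and 2.30 (1.79 to 2.97). Of the other genes listed as ITIM receptors, 4 of 6 measured were past the fold lower with photoconversion (34.6% of all genes) and 4 of 7 in control (42.2%), in each case Sirpa, Lair1, Cd300a and Cd33. Sirpa was at 0.702 (0.620 to 0.796) and 0.652 (0.586 to 0.725), photoconversion first, and Lair1 at 0.618 (0.531 to 0.721) and 0.630 (0.553 to 0.717). Cd300a was at 0.308 (0.224 to 0.424) and 0.337 (0.262 to 0.432). Past it higher were 1 of 6 with photoconversion, Siglecf (29.4% of all genes), and 2 of 7 in control, Siglecf and Cd72 (22.8%). Siglecf was at 2.35 (1.33 to 4.46) with photoconversion and 1.51 (0.979 to 2.38) in control, where the interval held 1. Cd72 had 115 UMIs in Cst7-dominant and 22 in P2ry12-dominant cells of the control library. Malat1 and depth differed between the same classes, as given above, and their part in these lists was not tested.

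**Figure D5:**
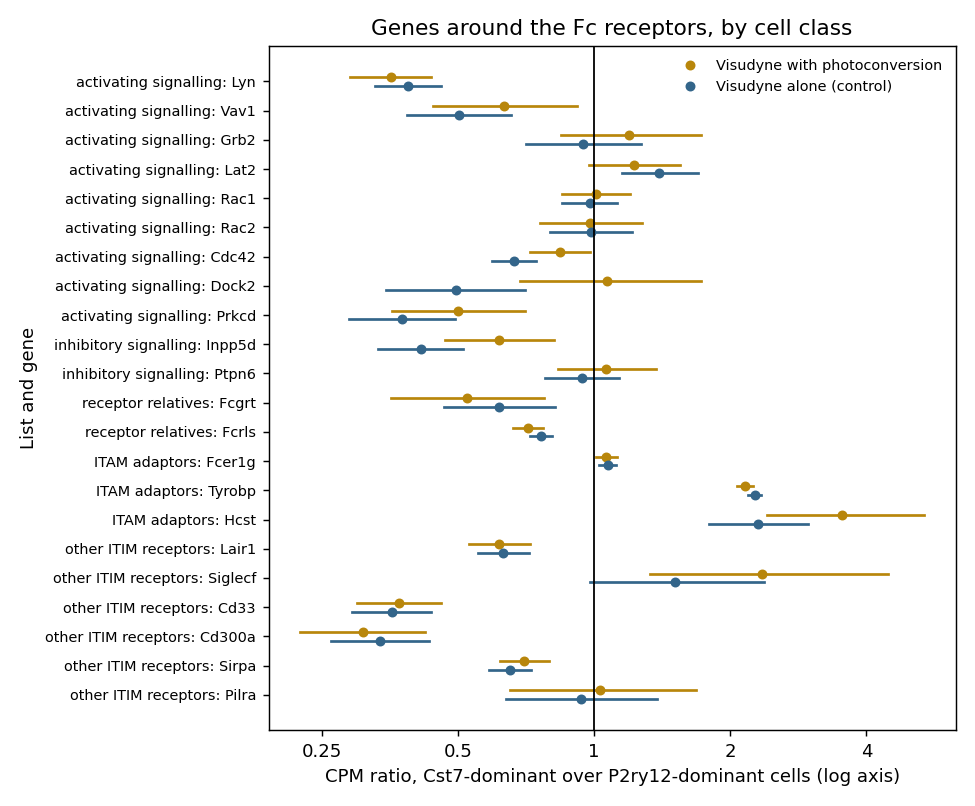
CPM ratio, Cst7-dominant over P2ry12-dominant cells (log axis), of genes from the lists with at least 100 UMIs in both libraries, photoconversion above control for each gene, with exact intervals. Tyrobp and Hcst lie above 2 in both libraries, Fcer1g near 1, and Lyn, Inpp5d, Cd33 and Cd300a below 1.

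Across cells thinned to 1000 UMIs, members followed one another weakly. Pearson's r over log counts between members ran from -0.09 to 0.16 over 272 photoconversion and 439 control cells, a description of cells that share a library. Of 899 genes compared, those most like Fcgr3 were the complement genes C1qc (0.337 with photoconversion and 0.355 in control) and C1qa (0.331 and 0.313) and Cst3 (0.376 and 0.312). Fcer1g was most like Tyrobp by the lower value, at 0.353 and 0.228, which is weak. For Fcgr1, Fcgr2b and Fcgr4 the lower of the 2 values was under 0.3 for every gene compared, which in counts this sparse is no finding.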

How the data were processed

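Droplet-based (10x Genomics) single-cell sequencing gave 1 library per group. The deposited matrices hold raw counts of UMIs. Per the submitters' processing notes the tools were bcl2fastq and Cell Ranger and the build mm10, and per the file headers the Cell Ranger version was 3.0.2. Counts were summed per library and class and expressed as CPM. Exact limits at 95% are Poisson for sums, conditional binomial for ratios and Clopper-Pearson for shares, and odds ratios are conditional. No count model was run, and edgeR 4.0.16 (TMM) and DESeq2 1.42.0 (median of ratios) gave scaling factors alone. A gene was measured with at least 100 UMIs over both sums, and past the fold at a log2 ratio over 0.32 in size. Thinning drew 1000 UMIs per cell without replacement (seed 1), leaving out shallower cells. Scrublet (scanpy 1.11.5) called 19 photoconversion and 17 control cells doublets, kept in the values of the report and left out in an alternative. Coordinates are from GENCODE vM21, matched by Ensembl identifier. Members and lists were chosen with earlier results of these data known. Genes named were the members, from each list those with most UMIs (2) and those with the ratios farthest from 1 (2), and up to 3 genes most like a member. A gene of the activating list and a B-cell marker count in the totals but are not reported here. The ratio and interval steps were tested on simulated data.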

Additional observations from a re-analysis of the deposited data

Results flagged for a closer look

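Fcgr1 lay on opposite sides of 1 in the cell classes. Its photoconversion over control ratio was 1.12 (0.959 to 1.31) in Cst7-dominant cells, an interval that held 1, and 0.734 (0.617 to 0.871) in P2ry12-dominant cells. Fcgr3 lay on opposite sides by less, at 1.03 in Cst7-dominant cells and 0.958 in P2ry12-dominant cells, and the counting intervals of both Fcgr3 values held 1. With 1 library per group the difference between the classes was not tested for either gene.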

How the results depend on the processing

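No paired analysis was possible because each group had 1 library and the labels give no replicate number. The depth ranges and the exclusion of other myeloid cells were chosen after seeing the data. Of the values under alternatives, 393 stayed within counting error, 80 moved and 5 were labelled reversed. The 5 were Fcer1g class ratios, marked as such below. Other values crossed 1 without that label. Among them were the class ratios of Fcgr4 with photoconversion and of Fcgr2b in control, and the class odds ratio with photoconversion. The label is thus not a count of all changes of direction. Where a value moved, the cause was not tested. Photoconversion over control, Fcgr1 was 0.737 at 1000 UMIs per cell, and Fcer1g 1.03 with cells weighed equally and 1.04 under TMM and median-of-ratios scaling. Photoconversion over control within classes, 8 values moved in Cst7-dominant and 8 in P2ry12-dominant cells. There the inhibitory odds ratio at 1000 to under 2000 UMIs was 0.127 (0.00279 to 0.980) in Cst7-dominant cells. In P2ry12-dominant cells of that range it was 1.99 (1.12 to 3.47). The other values that moved within classes are not listed here. The ratios that follow are class ratios, Cst7-dominant over P2ry12-dominant. With photoconversion, TMM and median-of-ratios gave Fcgr1 0.791 and 0.792, Fcgr3 0.892 and 0.893, Fcgr2b 0.944 and 0.945, and Fcer1g 1.36 and 1.36. In control they gave Fcgr1 0.525 and 0.534, Fcgr3 0.835 and 0.850, Fcgr2b 1.13 and 1.15, and Fcer1g 1.38 and 1.41. At 1000 to under 2000 UMIs, with 12 and 25 cells, photoconversion ratios were 0.491 for Fcgr1, 2.03 for Fcgr4 and 0.0814 for Fcgr2b, with an inhibitory odds ratio of 0.126. In that range in control, with 26 and 73 cells, they were 0.0758 for Fcgr1, 0.381 for Fcgr3, 0.852 for Fcgr4, 0.597 for Fcgr2b and 0.760 for Fcer1g (reversed), with an odds ratio of 1.99. At 2000 to under 6000 UMIs Fcgr3 was 0.593, Fcgr2b 0.615 and Fcer1g 0.992 (reversed) with photoconversion, and Fcgr4 0.970 and Fcer1g 0.983 (reversed) in control. At 6000 UMIs and above Fcgr1 was 0.816, Fcgr3 0.829 and Fcgr2b 0.907 with photoconversion, and Fcgr1 0.590 and Fcgr4 0.278 in control. At 1000 UMIs per cell Fcgr3 was 0.602, Fcgr2b 0.497 and the odds ratio 0.804 with photoconversion, and Fcgr1 0.321, Fcgr2b 0.693 and Fcer1g 0.957 (reversed) in control. With the classes also set on thinned cells Fcgr1 was 0.772, Fcgr3 0.597, Fcgr2b 0.462 and the odds ratio 0.738 with photoconversion. In control Fcgr2b was then 0.650, Fcer1g 0.994 (reversed) and the odds ratio 1.16. With cells weighed equally Fcgr2b was 0.567 with photoconversion, and Fcgr3 0.586 and Fcgr2b 0.736 in control. At 500 UMIs per cell activating receptors alone were found in 50% of photoconversion and 49.8% of control cells, both kinds in 7.89% and 7.42%, and neither in 37.5% and 37.9%. The share of all genes past the fold between libraries was 30.9% at a minimum of 50 UMIs, 15.1% at 200 UMIs, 4.91% at 1.5-fold and 46.7% at 1000 UMIs per cell, an alternative chosen after seeing the data. Between classes it was 39.2% with photoconversion at 1.5-fold, and 67.0% at 50 UMIs and 40.9% at 1.5-fold in control. Fcgr4 and the thinned odds ratios are limited by depth.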

Other observations

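Below the gene minimum, 1608 photoconversion and 1340 control barcodes with under 200 genes still held Fc receptor UMIs. Fcer1g stood there at 2160 CPM with photoconversion and 2568 CPM in control, and Fcgr3 at 758 and 1056 CPM, below the levels of kept cells in each library.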
